A study of Homo sapiens with 56 samples.

Results

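The 10 genes described here encode the 2 kinds of chaperonin of human cells: the 8 subunits of the cytosolic ring TRiC/CCT (TCP1, CCT2, CCT3, CCT4, CCT5, CCT6A, CCT7 and CCT8) and the mitochondrial pair HSPD1 (HSP60) and HSPE1 (HSP10). They were taken by symbol from 2 tables of gene counts, one of 16485 genes and one of 16454 genes. All 10 were present in both tables and passed the low-count filter in every cell line. The tables come from RNA sequencing of 7 established colorectal cancer cell lines in a study of how a metabolite of cancer-associated microbiota modulates chemotherapy. The labels name no chemotherapy drug in any library. Each line, labelled wild-type and epithelial, was given 10 mM 2-methylisocitrate (2-MiCit), an intermediate of the methylcitrate cycle by which bacteria break down propionate, or water as the vehicle (control). HCT116, DLD1, LoVo and SW948 are in the first table and HT29, SKCO1 and SW1417 in the second. There were 4 libraries per group, 14 groups and 56 libraries in all. Libraries are numbered within a group, but no label states that each is its own culture. The p-values therefore measure the spread between libraries only, and that spread may be technical.

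Chaperonins are barrel-shaped machines that enclose an unfolded protein and let it fold apart from other proteins. TRiC/CCT stacks a pair of rings, each built from every one of its subunits at a fixed place, and folds actin, the tubulins and many proteins with WD40 repeats, such as the mitotic activator CDC20. Prefoldin hands clients to it, and phosducin-like proteins assist it. HSP60 forms rings in the mitochondrial matrix, HSP10 is the lid that closes them, and the pair folds proteins after the mitochondrial HSP70 has pulled them in through the import channels. HSPD1 and HSPE1 lie head to head and are transcribed in opposite directions from a shared promoter region, which heat shock factors are known to bind. Colorectal tumours, like other fast-growing tissues, carry high levels of both chaperonins.

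Promoter stretches are printed because the genes moved together in some lines, to show which known control elements lie before them. RefSeq (GRCh38.p14) gave 12 windows of 250 bases before a transcription start, for 9 of the 10 genes. CCT6A is named only. The windows were searched on both strands for a heat shock element (GAANNTTC or TTCNNGAA, counted also where matches overlap) and an ATF4-type element (TGATGNAA). The motif CCAAT was the next of those searched, named after its own letters and called a box. An E-box, the last motif, was spelled CACGTG. Stretches of 30 bases around the matches follow, each 5′ to 3′ on the gene's strand, with the matched letters in capitals.
HSPD1, chr2:197500061-197500090, minus strand, heat shock elements: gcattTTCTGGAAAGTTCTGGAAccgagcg
HSPE1, chr2:197500345-197500374, plus strand, E-box: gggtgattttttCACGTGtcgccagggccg
TCP1, chr6:159789815-159789844, minus strand, heat shock element: tcgtttgaggcGAAGGTTCaacctcttccc
CCT2, chr12:69585789-69585818, plus strand, heat shock element: cccggagcgaaGAAATTTCtagtgtgggac
CCT3, chr1:156338309-156338338, minus strand, CCAAT box: atgggtgcggtgATTGGcgactaccttgag
CCT8, chr21:29073694-29073723, minus strand, CCAAT box: aagggtgggctaATTGGagagccaggaaga
The HSPD1 stretch holds 3 overlapping matches and lies between the start of HSPE1 at position 197500379 of chromosome 2 and the HSPD1 start at 197499840, which are 539 bases apart. The E-box is in the windows of both HSPE1 and HSPD1, since a second HSPD1 start at 197500274 is 105 bases from that of HSPE1. The heat shock elements of HSPD1 are downstream of this second start. All 250 bases of their window, and of the HSPE1 window, are exonic in HSPD1 or HSPE1. TCP1 also holds a CCAAT box, and CCT3 holds a second one. CCT2 has 2 annotated starts. Its heat shock element is in the window of the second, downstream of the first start, where 223 of the 250 bases are exonic. A CCAAT box of CCT2 is in the window of the first start, which ends at position 69585458 of chromosome 12.
The heat shock element was found in 3 of the 12 windows, against 11.6% of all 34788 RefSeq windows of this length. The E-box was found in 2 of 12 against 6.31%, the CCAAT box in 4 of 12 against 32.0%, and the ATF4-type element in 0 of 12 against 3.16%. A match is a run of letters, not a measured binding site.

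The 10 genes are protein-coding and, apart from the pair, lie apart from each other in the genome (GENCODE release 29, GRCh38). HSPD1 is annotated on the minus strand at chr2:197486581-197516737 and HSPE1 on the plus strand at chr2:197499994-197503457, so that the annotated span of HSPD1 contains HSPE1. The library kit keeps strand, but none of the sources used here says whether the counting used it, so reads from the shared stretch cannot be told apart with certainty. CCT4 and CCT7 are also on chromosome 2, and TCP1, CCT2, CCT3, CCT5, CCT6A and CCT8 on chromosomes 6, 12, 1, 5, 7 and 21. Pseudogene copies and a readthrough transcript can share reads with the members. The pseudogenes in the tables had low counts, at most 326 in any library for CCT6P3, a copy of CCT6A. The readthrough HSPE1-MOB4 had at most 552, with a median of 428 in the second table, beside 3172 to 4541 counts of HSPE1 in HT29. Its part in the HSPE1 values was not tested.

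Library totals lay between 13.8 M and 19.4 M counts for the first table and between 29.1 M and 45.4 M for the second, so counting error was smaller in the second. All 8 markers fixed for colon epithelium were in the tables, but some were at or near 0 in single lines (median CPM, counts scaled to a common library size). In HCT116 KRT20 was at 0 in all 8 libraries, with VIL1 at 0.131 and CDH17 at 0.128 CPM. In HT29 CDX2 was at 2.41 and CDH17 at 1.95 CPM. KRT20 was at 1.17 CPM in LoVo and VIL1 at 4.86 CPM in DLD1. The fibroblast and endothelial lists summed to at most 22.2 and 1.98 CPM in any library. Of the leukocyte list 3 of 6 genes were in the tables, and they summed to at most 29.2 CPM in HCT116, DLD1, LoVo and SW1417 and to 75.7 to 1875 CPM in SW948, HT29 and SKCO1. The high sums of HT29 and SW948 came from lysozyme, LYZ, which intestinal epithelium also expresses. Libraries differed in how far counts depended on transcript length. The slope, in log2 CPM per doubling of length, was -0.225 in 2-MiCit library 2 of SW948 and -0.277 in control library 1 of DLD1, so that short transcripts were high in both. In the other libraries it lay between -0.125 and 0.134. The HSPE1 transcript, at 950 bases, is the shortest of the 10 (the others run from 1916 to 3675). The HSPE1 fold changes, the medians and the ring and pair means of these lines are given with and without these 2 libraries. The ratio of HSPD1 to HSPE1 is given with them only.

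HSPD1 was the most abundant chaperonin transcript in the control libraries of every line, measured per length as TPM (scaled so that every library has the same total). Its mean level there was 2756 TPM in LoVo, 2586 in HCT116, 2474 in SW948 and 2253 in DLD1. HT29 and SKCO1, with 1284 and 1295 TPM, and SW1417, with 1066 TPM, were measured in the other table and were not tested against the first 4 lines. HSPE1, its lid, had 1205 ± 62.9 TPM in HCT116, 1093 ± 204 in DLD1, 1301 ± 101 in LoVo and 1548 ± 74.2 in SW948 (SD, n = 4 each). Its level was 285.6 ± 38.2 TPM in HT29, 517.3 ± 8.98 in SKCO1 and 473.8 ± 8.14 in SW1417 (SD, n = 4 each). There were thus 4.55 ± 0.535 HSPD1 transcripts for each HSPE1 transcript in HT29 controls, and means of 1.6 to 2.5 in the controls of the other lines.

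**Figure D1:**
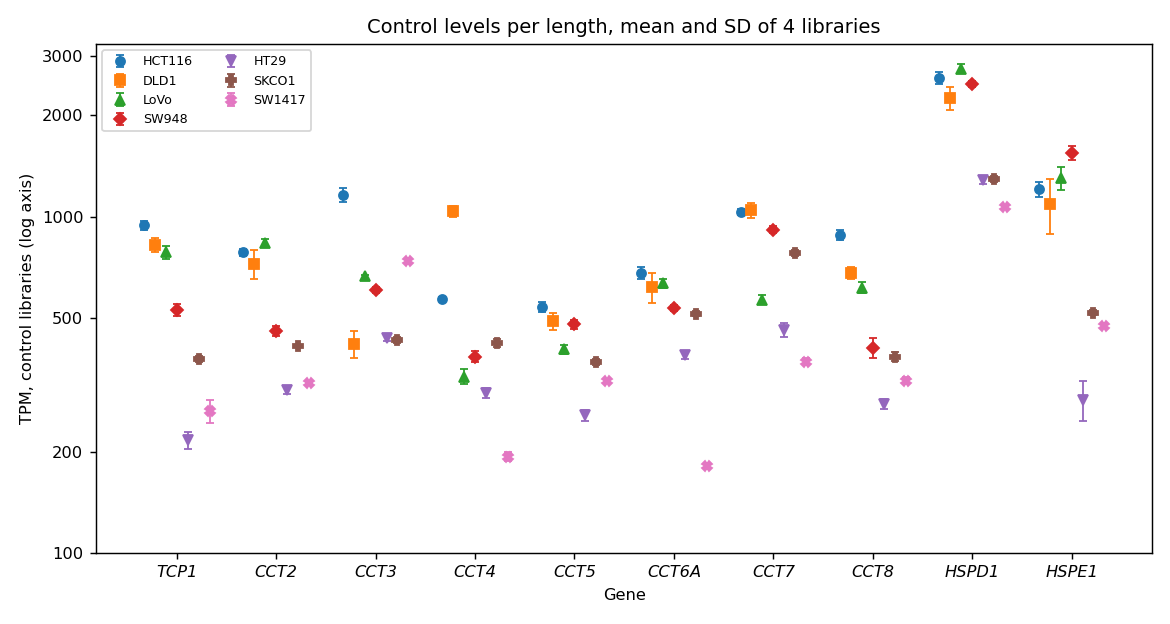
TPM (log axis) of each chaperonin gene in the control libraries, as mean and SD of 4 libraries per line, with lines in colours. HSPD1 is the highest in every line, CCT4 is high in DLD1 (1038 TPM) and CCT6A low in SW1417 (181 TPM).

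The 8 ring subunits, which are built into the complex in equal number, did not have equal transcript levels. In control libraries the highest subunit stood above the lowest by 2.11 to 2.5 times in 6 lines, and by 4.08 times in SW1417. In SW1417 the top was CCT3, the gamma subunit, with 737.9 ± 13 TPM, and the bottom CCT6A, the zeta subunit, with 181 ± 3.62 TPM (SD, n = 4 each). CCT4, the delta subunit, ran from 1038 ± 39.6 TPM in DLD1 controls to 334.5 ± 16.5 TPM in LoVo controls (SD, n = 4 each), the widest range of any member in the first table, 3.1 times. The order of its levels was DLD1, HCT116, SW948, LoVo, and no neighbours in that order overlapped.

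In an F test among the control libraries (edgeR's quasi-likelihood test, Benjamini-Hochberg adjusted over all genes), levels differed between the lines of the first table for 9 of the 10 chaperonin genes, with 91.4% of all genes called. All 10 were called in the second table, with 94.3% of all genes. The exception was HSPE1 in the first table (adjusted p = 0.0923), which was called once DLD1 control library 1 and the other control libraries numbered 1 were left out (adjusted p = 1.014e-05) and once the length trend was removed (adjusted p = 0.000278). In the order of TPM levels, neighbouring lines overlapped for HSPD1 throughout the first table (LoVo, HCT116, SW948, DLD1) and between SKCO1 and HT29 in the second. For CCT6A all neighbours of the first table overlapped (HCT116, LoVo, DLD1, SW948). CCT3, CCT4 and CCT8 had 4 separate levels in the first table, with CCT3 and CCT8 highest in HCT116.

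With 2-MiCit, all 10 chaperonin transcripts were called lower in HCT116 and in SKCO1, and none was called higher in any line. A gene was called at an adjusted p below 0.05 in edgeR's quasi-likelihood test of its line, and fold changes are 2-MiCit over control. In HCT116 the 10 called lower stand against 18.0% of the 13834 genes tested called lower (19.0% were called higher), and in SKCO1 against 10.8% of 14651 (8.10% higher). In LoVo 4 of 10 were called lower, against 0.702% of all genes (1.59% higher). In HT29 1 was called lower against 3.02% (4.65% higher), and in SW1417 1 against 4.05% (2.94% higher). None was called in DLD1, where 0% of all genes were called lower and 0.148% higher, nor in SW948, where 0% were called in either direction. With unadjusted p below 0.05, 1171 genes were lower in DLD1 and 409 in SW948. DESeq2 called 4 of the 10 lower in DLD1, with 164 called lower over all genes.

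**Figure D2:**
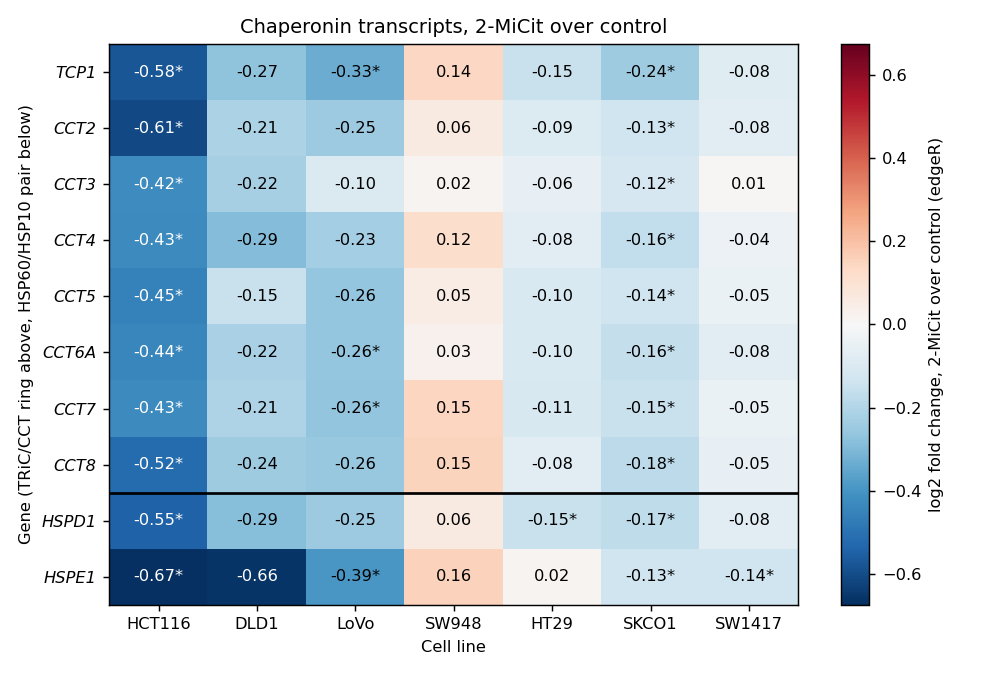
Log2 fold change (2-MiCit over control) of each chaperonin gene in each line, ring above the black line and pair below. Asterisks mark genes called at an adjusted p below 0.05: all 10 in HCT116 and SKCO1, 4 in LoVo, 1 each in HT29 and SW1417, and none in DLD1 and SW948.

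The share of all called genes that were higher depended on the scaling. For HCT116 it was 51.4% with TMM factors and 68.1% with library size alone. LoVo had 69.4% and 84.7% (80.1% with the authors' scaling, 51.2% with the length trend removed), HT29 had 60.7% and 72.2%, SKCO1 had 42.8% and 63.7%, and for SW1417 the shares were 42.1% and 55.9%. The chaperonin calls in HCT116 and SKCO1 were the same 10 of 10 under all of these.

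In HCT116 all 8 ring subunits were lower, with log2 fold changes from -0.61 to -0.42. CCT2, the beta subunit, had 465.7, 447.6, 492.4 and 447.6 CPM with 2-MiCit, against 733.1, 700.0, 691.3 and 696.7 CPM in controls. The groups lay far apart, with the highest 2-MiCit library well below the lowest control. Its log2 fold change was -0.61 ± 0.048 (SE, n = 4 each, adjusted p = 2.384e-05), the most negative of the ring. TCP1, the alpha subunit that gave the complex its first name, had 721.2, 667.8, 731.5 and 661.3 CPM with 2-MiCit, against 1068, 1051, 1016 and 1020 CPM in controls. These groups did not overlap either (log2 fold change -0.58 ± 0.05, n = 4 each, adjusted p = 3.392e-05). CCT8, the theta subunit, followed at -0.52 ± 0.05, with 556.6, 522.9, 574.5 and 521.2 CPM with 2-MiCit against 816.2, 768.5, 754.5 and 776.4 CPM in controls. The other 5 subunits lay between -0.45 (CCT5, the epsilon subunit) and -0.42 (CCT3), with all 4 libraries with 2-MiCit below all 4 controls for each. CCT3 fell to 818.7, 801.5, 856.1 and 807.2 CPM with 2-MiCit, against 1091, 1125, 1088 and 1097 CPM in controls. The adjusted p of the 8 subunits ran from 2.384e-05 to 0.000257.

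The mitochondrial pair was lower by a similar amount in HCT116. HSPD1 had 1939, 1863, 2023 and 1839 CPM with 2-MiCit, against 2901, 2800, 2684 and 2810 CPM in controls. Every 2-MiCit library lay well below every control. Its log2 fold change was -0.55 ± 0.05 (SE, n = 4 each, adjusted p = 4.187e-05). HSPE1 had 325.5, 305.2, 374.5 and 262.6 CPM with 2-MiCit, against 540.0, 496.3, 537.8 and 449.6 CPM in controls. Its groups did not overlap, and at -0.67 ± 0.1 (adjusted p = 0.000802) it had the most negative fold change of the 10 in this line. Over all 10 the median was -0.49, beside 0.03 over all genes tested, and 17.2% of all genes had every 2-MiCit library below every control library. The length slope ran from -0.0353 to 0.121 in the 2-MiCit libraries of HCT116 and from -0.112 to 0.0363 in its controls. With that trend removed the 10 fold changes lay between -0.56 and -0.37 and all were called, and with library size alone they lay between -0.59 and -0.34. Leaving out any 1 of the 8 libraries kept all 10 calls. The colon epithelium list summed to 5344 to 6028 CPM with 2-MiCit and to 3679 to 4037 CPM in controls of this line, and its part in the result was not tested.

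**Figure D3:**
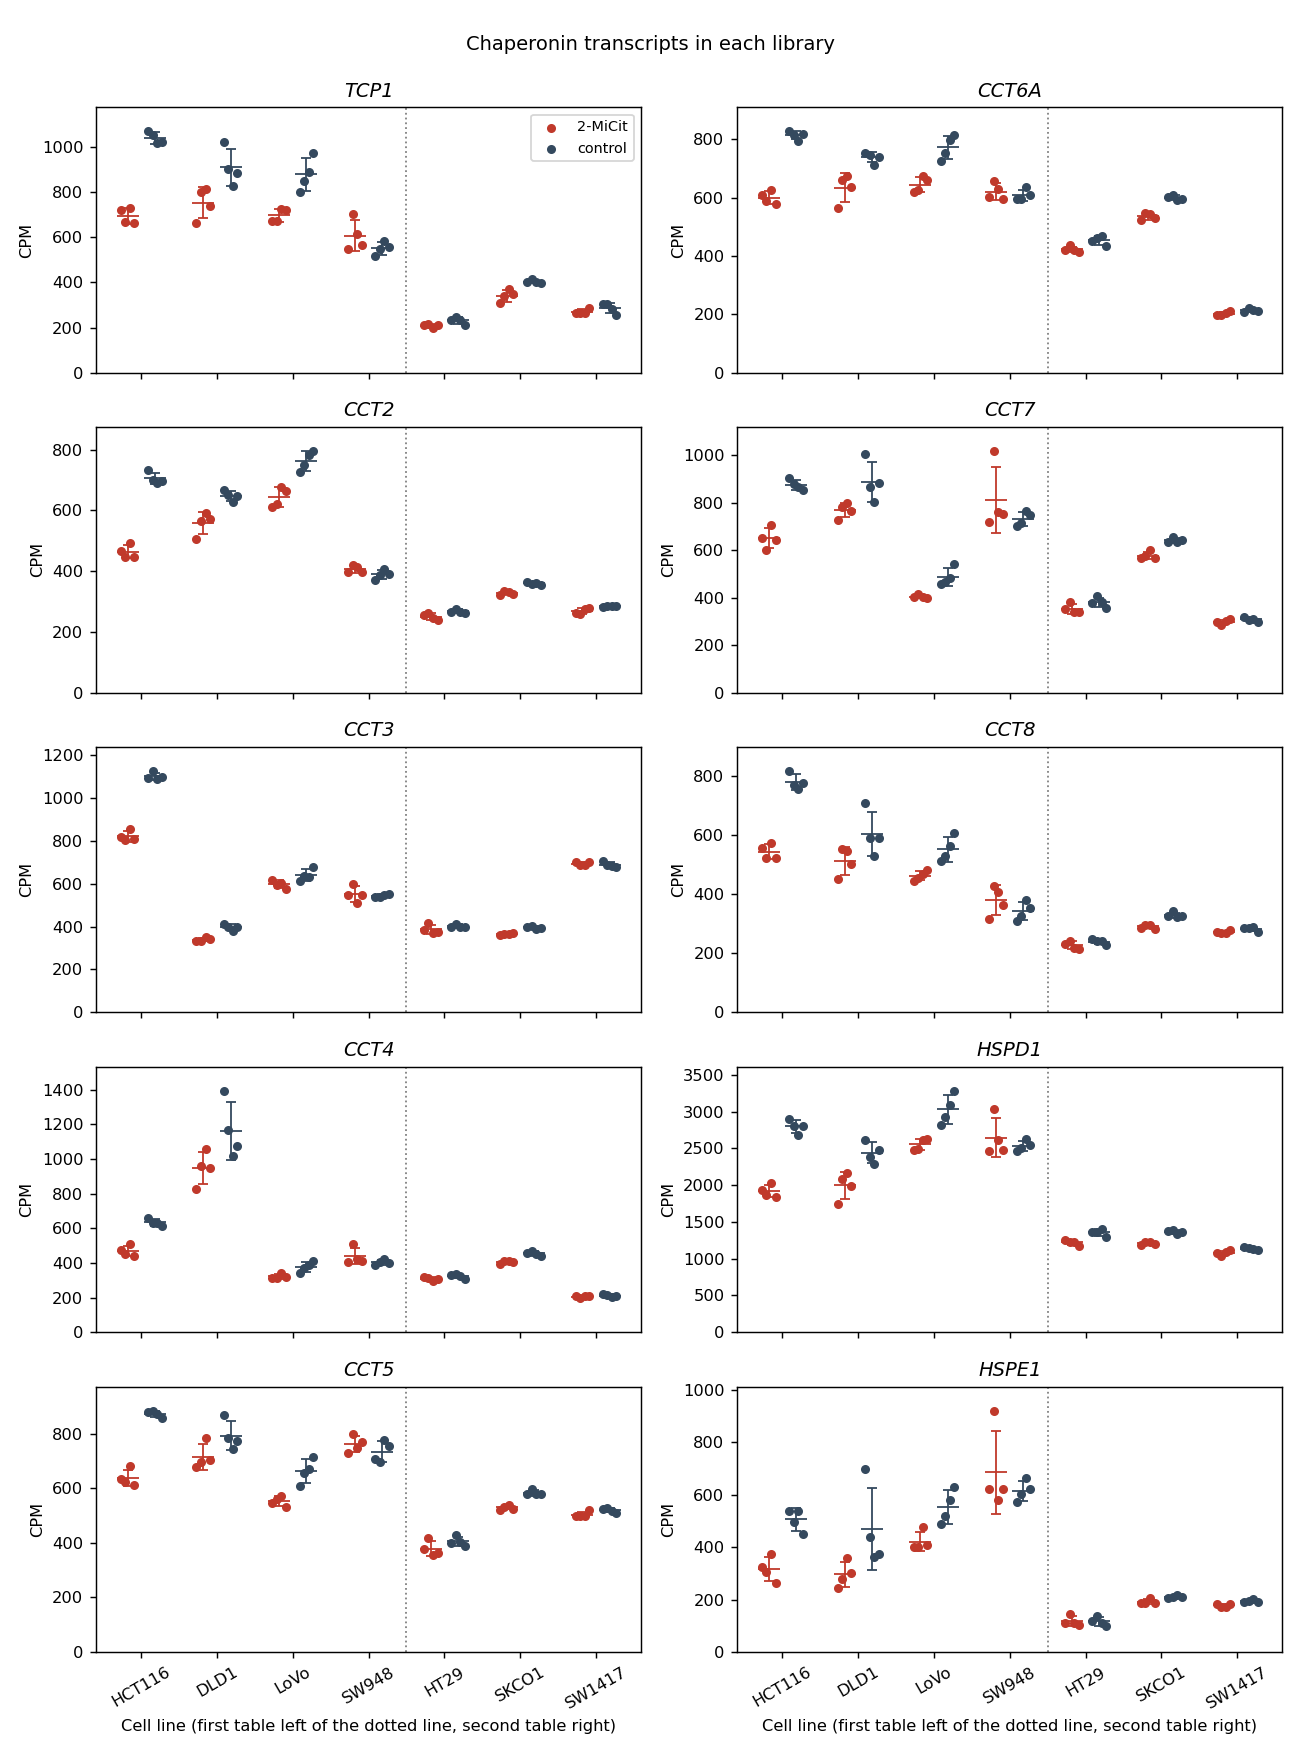
CPM (TMM-scaled) of each chaperonin gene in every library, 2-MiCit left and control right within each line, points for libraries and bars for mean and SD of 4. In HCT116 the groups stand apart for all 10 genes, in SKCO1 they stand apart by less, and in SW948 they overlap, with 2-MiCit library 2 at 921.1 CPM for HSPE1.

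SKCO1 showed the same direction for every chaperonin gene with smaller fold changes than in HCT116 and a smaller spread between libraries. HSPD1 had 1183, 1229, 1226 and 1206 CPM with 2-MiCit, against 1373, 1389, 1329 and 1359 CPM in controls. The groups did not overlap, and the log2 fold change was -0.17 ± 0.025 (SE, n = 4 each, adjusted p = 0.00033). HSPE1 had 187.4, 188.3, 206.4 and 186.9 CPM with 2-MiCit, against 207.7, 208.4, 216.3 and 210.2 CPM in controls. The highest 2-MiCit library came close to the lowest control, and the log2 fold change was -0.13 ± 0.031 (n = 4 each, adjusted p = 0.00744).

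Among the SKCO1 ring subunits, TCP1 had the most negative fold change and the widest spread. It had 307.6, 338.4, 371.3 and 348.8 CPM with 2-MiCit, against 402.1, 414.2, 401.1 and 398.6 CPM in controls. The control libraries were tightly grouped and all lay above the 2-MiCit libraries (log2 fold change -0.24 ± 0.05, SE, n = 4 each, adjusted p = 0.0104). CCT8 had 286.8, 296.6, 296.6 and 283.0 CPM with 2-MiCit, against 325.4, 341.8, 322.2 and 326.9 CPM in controls, again without overlap (-0.18 ± 0.025, n = 4 each, adjusted p = 0.000274). CCT3 had the smallest change of the ring, -0.12 ± 0.022 (n = 4 each, adjusted p = 0.00216). The median of the 10 was -0.16, beside 0.01 over all genes, and all 10 had groups that did not overlap, against 12.5% of all genes with the 2-MiCit libraries lower. Every chaperonin call in SKCO1 was kept when any 1 library was left out. In 1 fit over the 3 lines of the table, HSPE1 was no longer called (adjusted p = 0.334). The leukocyte list, with 3 of 6 genes in the table and LYZ its most abundant, summed to 83.5 to 89.5 CPM with 2-MiCit and to 75.7 to 80.7 CPM in controls of SKCO1, and its part in the result was not tested.

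In LoVo all 10 fold changes were negative, with a median of -0.26 beside 0.00 over all genes, and 4 passed the test. TCP1 had 671.1, 674.0, 722.9 and 719.8 CPM with 2-MiCit, against 800.5, 849.1, 890.0 and 970.9 CPM in controls. The groups did not overlap, and the log2 fold change was -0.33 ± 0.069 (SE, n = 4 each, adjusted p = 0.037). HSPE1 had 399.8, 400.4, 477.7 and 409.1 CPM with 2-MiCit, against 486.8, 519.1, 580.5 and 629.2 CPM in controls, with 1 library with 2-MiCit near the lowest control (-0.39 ± 0.088, n = 4 each, adjusted p = 0.0447). CCT6A and CCT7, the eta subunit, were each called at an adjusted p of 0.0481, both with a log2 fold change of -0.26. CCT7 had 401.7, 414.4, 403.5 and 398.7 CPM with 2-MiCit, against 457.3, 465.1, 480.8 and 540.5 CPM in controls.

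The other LoVo members sat close to the threshold. CCT5 (-0.26, adjusted p = 0.0502), CCT2 (-0.25, adjusted p = 0.0555), CCT8 (-0.26, adjusted p = 0.0568) and HSPD1 (-0.25, adjusted p = 0.0928) were not called, though their groups did not overlap. CCT4 (-0.23, adjusted p = 0.0834) and CCT3 (-0.10, adjusted p = 0.347) had overlapping groups. In all, 8 of 10 had every 2-MiCit library below every control library, against 6.43% of all genes. CCT6A and CCT7 were not called with library size alone, with the authors' scaling or without the low-count filter (adjusted p from 0.0519 to 0.0578). In 1 fit over the 4 lines of the table, CCT7 (adjusted p = 0.112) and HSPE1 (adjusted p = 0.288) were not called. The count of 4 also depended on single libraries. It was 0 without 2-MiCit library 1, 2 or 4 or control library 2 or 3, 1 without 2-MiCit library 3, 9 without control library 1 and 7 without control library 4. The fold changes stayed negative in all of these, with ring means from -0.28 to -0.20. Control library 4 had the highest level of each of the 10 genes and a length slope of -0.125. With the length trend removed 9 of 10 were called, while the count called lower over all genes rose from 96 to 329.

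DLD1 gave negative fold changes for all 10, none called. The levels of HSPE1 were 245.9, 279.9, 359.8 and 301.6 CPM with 2-MiCit, against 697.3, 440.8, 363.7 and 375.8 CPM in controls. Control library 1 was far above the others, and the highest 2-MiCit library all but reached the lowest control. The log2 fold change was -0.66 ± 0.215 (SE, n = 4 each, adjusted p = 0.239), and -0.41 without that control library or -0.40 with the length trend removed. HSPD1 had 1747, 2084, 2169 and 1983 CPM with 2-MiCit, against 2618, 2383, 2281 and 2474 CPM in controls. Its groups did not overlap (-0.29 ± 0.095, n = 4 each, adjusted p = 0.241). CCT3 had 334.4, 332.2, 349.9 and 341.8 CPM with 2-MiCit, against 411.4, 397.5, 377.5 and 398.2 CPM in controls, with tight groups and no overlap (-0.22 ± 0.064, n = 4 each, adjusted p = 0.211). In 7 of 10 genes every 2-MiCit library lay below every control library in CPM, against 6.10% of all genes. CCT7 did so by 800.3 against 801.1 CPM. In TPM only HSPE1 of the 10 stayed apart (at most 896.8 with 2-MiCit, at least 943.8 in controls). HSPD1, for one, reached 2213 TPM with 2-MiCit and was as low as 2007 TPM in controls. The median was -0.23, -0.20 without control library 1 and -0.18 with the length trend removed. None of the 10 was called when any 1 library was left out. DESeq2 called CCT2, CCT3, CCT6A and HSPD1 lower, and 1 fit over the 4 lines of the table called 7 of 10 lower.

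In HT29, 9 of 10 fold changes were negative and HSPD1 alone was called. It had 1260, 1233, 1222 and 1175 CPM with 2-MiCit, against 1367, 1359, 1401 and 1297 CPM in controls. The groups did not overlap, and the log2 fold change was -0.15 ± 0.035 (SE, n = 4 each, adjusted p = 0.0267). The call was lost without 2-MiCit library 3 or 4 or control library 1, 2 or 3 (adjusted p up to 0.108). Without 2-MiCit library 2, CCT5 was called as well, and without control library 4, TCP1 was. DESeq2 also called TCP1 (adjusted p = 0.0345) and CCT6A (adjusted p = 0.0229), and 1 fit over the table called CCT2, CCT6A and CCT7 (adjusted p from 0.0137 to 0.0473). HSPE1 had 111.5, 146.6, 112.4 and 103.3 CPM with 2-MiCit, against 117.7, 138.0, 110.4 and 100.8 CPM in controls. These groups overlapped throughout, and the fold change of 0.02 ± 0.135 turned to -0.10 without 2-MiCit library 2, -0.005 without control library 3 and -0.05 without control library 4. The ring subunits lay between -0.15 (TCP1, adjusted p = 0.0852) and -0.06 (CCT3, adjusted p = 0.423), each with overlapping groups. The median of the 10 was -0.10, and 1 of 10 had groups that did not overlap, against 7.31% of all genes. The leukocyte list, nearly all of it LYZ, summed to 1790 to 1875 CPM with 2-MiCit and to 1696 to 1764 CPM in controls of HT29, and its part in the result was not tested.

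SW1417 had HSPE1 as its called member. The gene had 182.3, 173.2, 173.2 and 182.9 CPM with 2-MiCit, against 192.8, 196.2, 200.6 and 192.6 CPM in controls. All controls were higher, and the log2 fold change was -0.14 ± 0.026 (SE, n = 4 each, adjusted p = 0.00599). The call was kept when any 1 library was left out, and was lost with the authors' scaling (adjusted p = 0.0778) and in 1 fit over the table (adjusted p = 0.539). HSPD1 had 1075, 1038, 1085 and 1112 CPM with 2-MiCit, against 1152, 1144, 1126 and 1124 CPM in controls. It did not overlap but missed the threshold (-0.08 ± 0.023, n = 4 each, adjusted p = 0.0557). Ring members lay between -0.08 and 0.01, and CCT3, at 699.9, 685.7, 688.7 and 702.1 CPM with 2-MiCit against 706.0, 688.9, 683.4 and 678.3 CPM in controls, was the only one not below 0. Without 2-MiCit library 4, which had the highest level of each of the 10 genes in its group, CCT2, CCT6A and HSPD1 were called as well. Without control library 4, HSPD1 was. In 3 of 10 genes the groups did not overlap, against 7.68% of all genes.

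SW948 was the line in which no chaperonin gene had a negative fold change. The fold changes ran from 0.02 (CCT3) to 0.16 (HSPE1), with a median of 0.09 beside 0.00 over all genes, and in 0 of 10 genes did the groups stand apart, against 2.71% of all genes with the 2-MiCit libraries lower. HSPE1 had 621.3, 921.1, 579.1 and 621.6 CPM with 2-MiCit, against 572.6, 602.8, 662.7 and 620.7 CPM in controls. Only 2-MiCit library 2 was above the controls (0.16 ± 0.143, SE, n = 4 each, adjusted p = 0.596). CCT7 had the same shape, with 716.8, 1016, 759.4 and 752.3 CPM with 2-MiCit, against 700.5, 716.0, 764.6 and 748.8 CPM in controls (0.15 ± 0.114, n = 4 each, adjusted p = 0.555). Without that library the fold change was -0.02 for HSPE1, -0.01 for HSPD1, -0.02 for CCT3 and between 0.00 and 0.08 for the other 7, with a median of 0.03. With the length trend removed HSPE1 was -0.04, CCT3 -0.04 and CCT2 0.00, and with library size alone CCT3 was -0.01.

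The cytosolic ring and the mitochondrial pair were compared by the mean of their log2 fold changes, with no test since the genes were chosen with earlier results known. With all libraries the means had the same sign in each line. In HCT116 the pair's mean was -0.61 and the ring's -0.49. DLD1 had -0.48 for the pair and -0.23 for the ring, LoVo had -0.32 and -0.24, and SW948 had 0.11 and 0.09. For HT29 the pair's mean was -0.06 and the ring's -0.10, for SKCO1 they were -0.15 and -0.16, and SW1417 had -0.11 and -0.05. With the length trend removed, HSPE1 moved from -0.67 to -0.55 in HCT116, from -0.66 to -0.40 in DLD1 and from -0.39 to -0.30 in LoVo. The other members moved by less in these lines. Whether transcript length accounts for the pair's lower mean there was not tested. In each library the difference between the mean log2 CPM of the pair and that of the ring was also taken. Its groups did not overlap in DLD1 alone, where it ran from 0.19 to 0.40 with 2-MiCit and from 0.42 to 0.74 in controls. In SW1417 the groups only touched, with 0.4813 to 0.5256 with 2-MiCit and 0.5256 to 0.5764 in controls. Without control library 1 of DLD1 the pair's mean fold change there was -0.33 and the ring's -0.18. Without 2-MiCit library 2 of SW948 the signs differed in that line, with -0.01 for the pair and 0.03 for the ring, and they also did with the length trend removed (-0.01 and 0.05). In HCT116 the difference ran from 0.27 to 0.45 with 2-MiCit and from 0.44 to 0.54 in controls, which overlapped. The HSPD1 to HSPE1 ratio per length was 2.37 ± 0.257 with 2-MiCit and 2.15 ± 0.205 in controls of HCT116. In DLD1 it was 2.63 ± 0.24 and 2.13 ± 0.491, LoVo had 2.35 ± 0.16 and 2.12 ± 0.105, and SW1417 had 2.34 ± 0.0601 and 2.25 ± 0.0575 (SD, n = 4 each). With 2-MiCit the mean was below the control mean in the other lines, with 1.52 ± 0.194 and 1.6 ± 0.0557 in SW948, 4.06 ± 0.542 and 4.55 ± 0.535 in HT29, and 2.44 ± 0.102 and 2.5 ± 0.0909 in SKCO1 (SD, n = 4 each). The groups overlapped in all 7 lines. The lowest SW948 ratio with 2-MiCit, 1.27, was that of library 2, where HSPE1 had 1877 TPM against 1482 to 1544 TPM in the others. The lowest DLD1 control ratio, 1.45, was that of library 1. Mean ratios without these libraries were not taken, so no direction is read from the SW948 means.

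**Figure D4:**
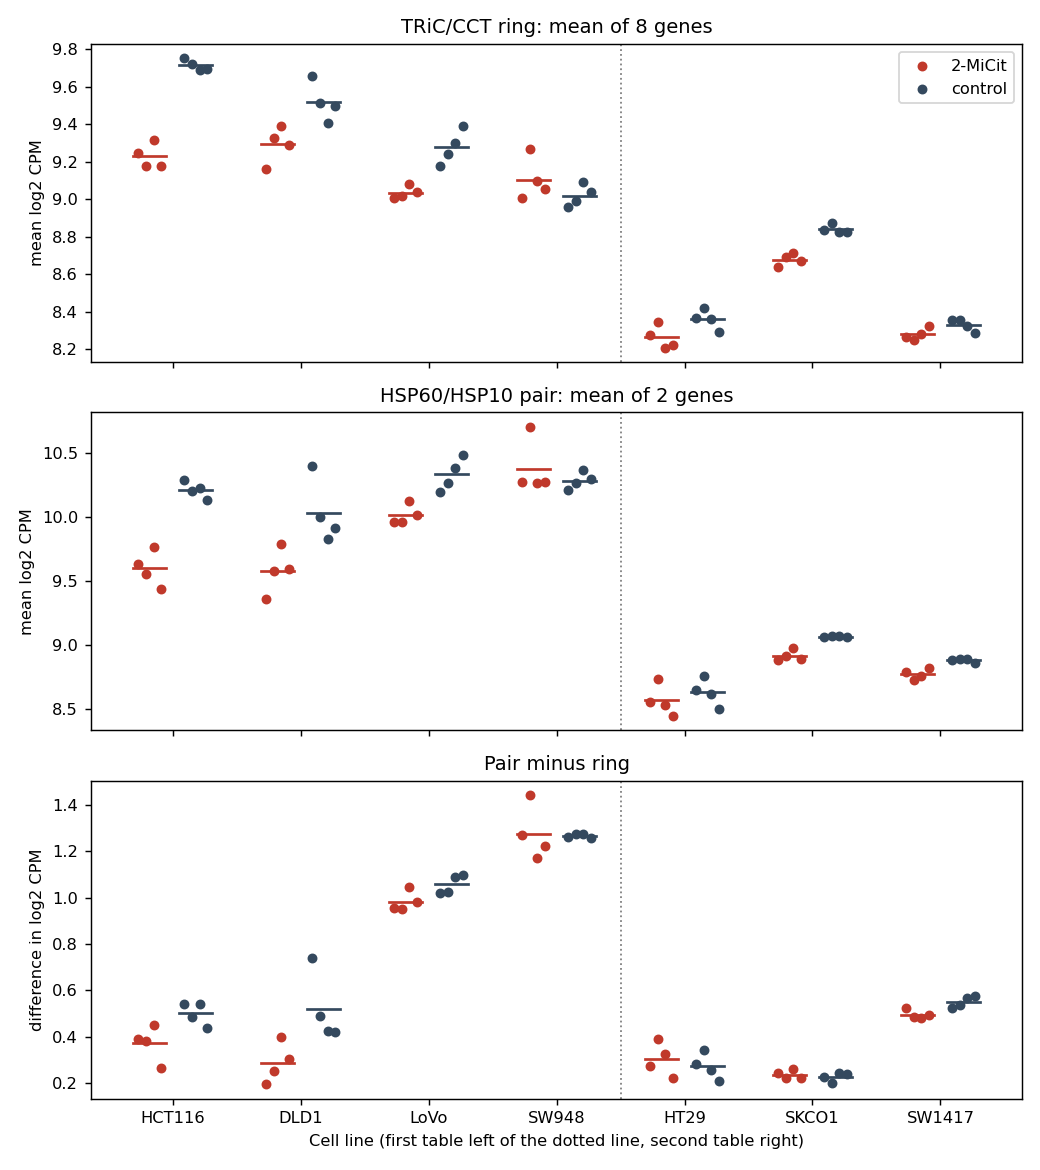
Mean log2 CPM of the 8 ring subunits (top), of HSPD1 and HSPE1 (middle), and the pair minus the ring (bottom) in each library, 2-MiCit left and control right within each line, with short lines for group means. Ring and pair are both lower with 2-MiCit, without overlap, in HCT116, DLD1, LoVo and SKCO1. Their difference stands apart only in DLD1, and in SW1417 the groups touch at 0.5256.

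A treatment-by-line interaction, taken from 1 edgeR fit per table, tested whether the chaperonin response depended on the line. In the first table all 10 were called without a replicate block, against 18.0% of 15800 genes. The adjusted p was smallest for CCT2 (4.805e-06), whose log2 fold change was -0.61 in HCT116, -0.215 in DLD1, -0.25 in LoVo and 0.06 in SW948. It was largest for HSPE1 (0.0274), which missed the threshold without 2-MiCit library 2 of SW948 (adjusted p = 0.0849) and without control library 1 (0.0673) or 2 (0.0541) of SW948. In the second table none of the 10 was called, against 5.49% of 16090 genes. There CCT3 came nearest (adjusted p = 0.0998, called by DESeq2's likelihood ratio test at 0.033 and by edgeR without 2-MiCit library 2 of HT29 at 0.0305), with -0.06 in HT29, -0.12 in SKCO1 and 0.01 in SW1417. CCT3, CCT4, CCT8 and HSPD1 had an unadjusted p below 0.05 there. The calls in SKCO1 and their absence in HT29 and SW1417 were thus not shown to be a difference between these lines.

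Genes that work with the ring were read from lists chosen with earlier results known. Of the 6 prefoldin subunits, 4 were called lower in HCT116 (18.0% of all genes), 2 in SKCO1 (10.8%) and 1 each in HT29 (3.02%) and SW1417 (4.05%), and none was higher. PFDN2 was called in all 4 of these lines, with log2 fold changes of -0.51 ± 0.092 in HCT116 (adjusted p = 0.00171), -0.23 ± 0.043 in HT29, -0.17 ± 0.032 in SKCO1 and -0.13 ± 0.036 in SW1417 (SE). The SW1417 call (adjusted p = 0.041) was lost in 6 of 8 omissions of 1 library. VBP1 was lower in HCT116 (-0.23, adjusted p = 0.0195, lost without 2-MiCit library 2 at 0.0522 and with library size alone at 0.073) and in SKCO1 (-0.15, adjusted p = 0.00299). Of 5 cofactors, 3 were lower in HCT116 and none in the other lines. Among the CCT-like genes BBS10 and CCT6B, a testis-type zeta subunit, were called higher in HCT116, where 19.0% of all genes were. Median fold changes in HCT116 were -0.26 for prefoldin, -0.30 for the cofactors and 0.45 for the 4 CCT-like genes, beside -0.45 for the ring.

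The client list holds 24 genes, among them 5 tubulin-folding cofactors (TBCA, TBCB, TBCC, TBCD and TBCE) that take tubulin from the ring and are not clients. In HCT116 12 of the 24 were called lower, TBCA and TBCD among them, and 1 higher, against 18.0% and 19.0% of all genes. In SKCO1 11 were called lower, TBCD among them, and 0 higher (10.8% and 8.10% of all genes). HT29 had 8 and 1 (3.02% and 4.65%), SW1417 had 7 and 0 (4.05% and 2.94%), LoVo had 1 and 0 (0.702% and 1.59%), and DLD1 and SW948 had none. CDC20, which the ring folds for mitotic exit, was lower in 5 lines. It averaged 277.4 CPM with 2-MiCit and 446.7 CPM in controls of HCT116 (log2 fold change -0.69 ± 0.047, SE, n = 4 each, adjusted p = 1.314e-05) and 146.9 and 201.0 CPM in HT29 (-0.45 ± 0.044, adjusted p = 0.000395). Its changes were -0.29 in LoVo, -0.22 in SKCO1 and -0.12 in SW1417, and the LoVo call was lost in 6 of 8 omissions and the SW1417 call in 4 and in 1 fit over the table. The tubulins TUBA1B, TUBA1C, TUBB and TUBB4B were each lower in HCT116, HT29, SKCO1 and SW1417, though TUBA1B and TUBB were not called in SW1417 in 1 fit over the table (adjusted p = 0.0516 and 0.0609). TUBB had 815.9 CPM with 2-MiCit and 1274 CPM in controls of HCT116 (-0.64 ± 0.074, adjusted p = 0.00015) and 720.0 and 1008 CPM in HT29 (-0.49 ± 0.039, adjusted p = 0.000135). CCNE1 was called lower in HCT116 (-0.18, adjusted p = 0.0462) and higher in HT29 (0.47, adjusted p = 0.0338), and these calls were lost in 7 and 6 of 8 omissions.

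Of the 11 genes of the cytosolic HSP70 and HSP90 list, 10 were lower in HCT116 (18.0% of all genes) and 10 in SKCO1 (10.8%). In SW1417 5 were lower (4.05%), in LoVo 2 (0.702%) and in HT29 1 (3.02%), and none was higher. HSPA8, the constitutive HSP70, averaged 1802 CPM with 2-MiCit and 3132 CPM in controls of HCT116 (log2 fold change -0.80 ± 0.046, SE, n = 4 each, adjusted p = 5.003e-06). It was also called lower in SKCO1 (-0.12) and SW1417 (-0.07, lost in 6 of 8 omissions). HSPH1, its nucleotide exchange factor, was lower in 4 lines, with -0.51 in HCT116, -0.40 in LoVo, -0.11 in SKCO1 and -0.09 in SW1417. STIP1, which links HSP70 to HSP90, was lower in HCT116 (-0.57), LoVo (-0.25), HT29 (-0.17) and SKCO1 (-0.20). HSP90AA1 and DNAJA1 were lower in HCT116, SKCO1 and SW1417, with -0.51 and -0.53 in HCT116. Of these, the LoVo call of STIP1 was lost in 6 of 8 omissions and that of HSPH1 in 3, the HT29 call of STIP1 in 5, the SKCO1 call of DNAJA1 in 5, and the SW1417 calls of HSPH1 in 5 and DNAJA1 in 3. In 1 fit over the second table, HSPA8, HSP90AA1 and DNAJA1 were not called in SKCO1 (adjusted p from 0.0555 to 0.17), and in SW1417 neither these nor HSPH1 were (adjusted p from 0.184 to 0.687).

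**Figure D5:**
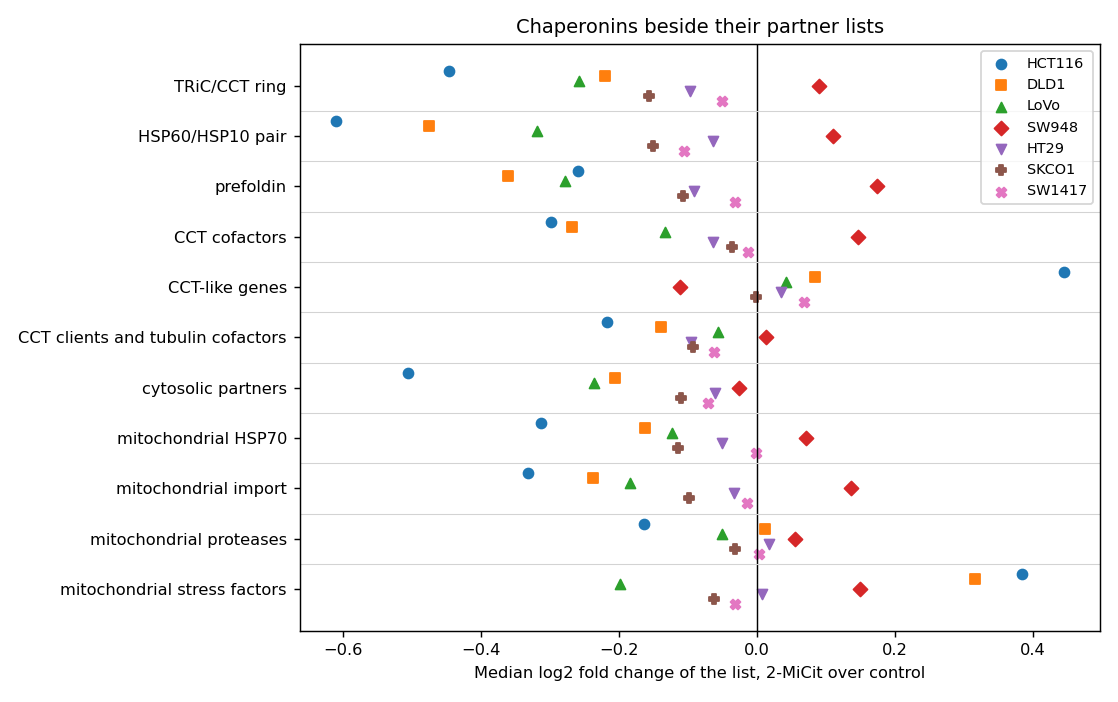
Median log2 fold change (2-MiCit over control) of the ring, the pair and each partner list, with 1 symbol per line. In HCT116 the medians are lowest for the pair (-0.61), the cytosolic partners (-0.51) and the ring (-0.45), and above 0 for the CCT-like genes (0.45) and the stress factors (0.38).

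On the mitochondrial side, 6 of 8 genes of the HSP70 list were lower in HCT116, 3 in SKCO1 and 1 in LoVo, and of 12 import genes 9, 8 and 1 were, against 18.0%, 10.8% and 0.702% of all genes in these lines. HSPA9, the matrix HSP70 that acts before HSP60, averaged 672.0 CPM with 2-MiCit and 823.1 CPM in controls of HCT116 (log2 fold change -0.29 ± 0.044, SE, n = 4 each, adjusted p = 0.000641) and 633.9 and 687.3 CPM in SKCO1 (-0.12 ± 0.023, adjusted p = 0.00282). Its exchange factor GRPEL1 was lower in HCT116 (-0.36) and LoVo (-0.23, lost in 6 of 8 omissions). TRAP1, the mitochondrial HSP90, and PPIF, cyclophilin D, were lower in HCT116 and SKCO1, with -0.27 and -0.47 in HCT116, and the SKCO1 call of TRAP1 was lost in 4 of 8 omissions. TOMM40, the channel of the outer membrane, had the largest change of the import genes in HCT116, -0.68 ± 0.054 (adjusted p = 2.355e-05), and was -0.18 in SKCO1. TOMM22, TIMM23 and PMPCA were lower in both lines, and TIMM17A in HCT116 and LoVo, where its call was lost in 5 of 8 omissions and in 1 fit over the table (adjusted p = 0.149). The same kind of fit ended the SKCO1 calls of TRAP1 (adjusted p = 0.177) and PMPCA (adjusted p = 0.0519).

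The mitochondrial proteases and stress factors had calls in both directions. Of 8 proteases, 4 were lower and 1 (OMA1) higher in HCT116, against 18.0% and 19.0% of all genes. In SKCO1 1 was lower (CLPP, -0.13, lost in 6 of 8 omissions) and 1 higher (SPG7), against 10.8% and 8.10% of all genes. Of the 4 stress factors, ATF4, ATF5 and DDIT3 were called higher in HCT116, where 19.0% of all genes were and HSPD1 and HSPE1 fell. ATF5, a transcription factor of the mitochondrial unfolded protein response, averaged 42.7 CPM with 2-MiCit and 32.3 CPM in controls of HCT116 (log2 fold change 0.40 ± 0.08, SE, n = 4 each, adjusted p = 0.00325). In SKCO1 it was called lower (-0.11, adjusted p = 0.0367, lost in 5 of 8 omissions). HSF1, HSPA1A and HSPA1B are not analysed here.

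Across the 56 libraries, with each line's mean taken out, the chaperonin genes varied together. The 28 pairs of ring subunits had Pearson correlations of log2 CPM from 0.83 to 0.969 (median 0.914), and HSPD1 and HSPE1 had 0.839. With the means of line and treatment taken out these were 0.441 to 0.889 (median 0.75) and 0.709. The points share libraries and their length bias, and are described without a test. Correlations over all pairs of genes were not taken for comparison. Likeness to other genes was taken with each line's mean alone removed, so that the treatment difference stayed in. Of 11319 genes tested in all lines, those most like the mean of the ring were SET (0.957), ANP32A (0.956), CDC123 (0.955), PA2G4 (0.955), PDIA6 (0.954), NPM1 (0.952), PSMD13 (0.95) and PUM3 (0.95). Those most like the mean of the pair were CACYBP (0.974), HSP90AA1 (0.965), TOMM6 (0.964), ANP32A (0.963), PSMA5 (0.958), EBNA1BP2 (0.956), C1QBP (0.955) and MRTO4 (0.954).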

How the data were processed

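RNA was sequenced from 7 colorectal cancer cell lines with 2-MiCit or water, 4 libraries per group, after a stranded mRNA preparation, per the labels' protocols. The authors deposited raw counts per gene in 2 tables, and normalized counts (a signal on a linear scale) from which only the authors' scaling was taken. The submitters' processing notes name Salmon 1.5.0, Trimmomatic 0.39, bcl2fastq 2.20.0, DESeq2 and build GRCh38.p13. Salmon shares reads among similar transcripts, so genes with near-identical copies are uncertain. How long cells were treated is not stated in the labels used.

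Identifiers were matched to GENCODE release 29. Of them, 1156 in the first table and 1186 in the second had no match, with 3.08% to 3.91% of a library's counts, and stayed in all tests unnamed. Each line was tested alone with edgeR 4.0.16 in R 4.3.3 (filterByExpr, TMM factors, quasi-likelihood F test, two-sided, Benjamini-Hochberg over all genes, threshold 0.05), which gave each adjusted p where no other test is named. CPM values carry the TMM factors, and TPM values divide counts by transcript length. Differences between lines were tested within a table. No pair of the 84 replicate pairs agreed within sampling noise (chi-square per gene 4.2 or more). The fits were tested on simulated data. DESeq2 1.42.0, other scalings and filters, removal of the length trend, 1 fit per table, a replicate block and omission of each library were tried as alternatives.

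The members and gene lists were chosen with earlier results of these data known. All 10 members are named, and of each partner list up to 5 genes called in at least 2 lines, with any called in opposite directions. BBS10, CCT6B, OMA1, SPG7, ATF4 and DDIT3 are named beyond this rule, chosen after their values were seen. For likeness, the 8 genes with the highest correlation are named.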

Additional observations from a re-analysis of the deposited data

Results flagged for a closer look

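In 8 of 140 groups of 4 libraries, 1 library stood apart from the other 3 by more than Dixon's critical value, and chance gives about 1 in 20 groups. In LoVo, 2-MiCit library 3 was high for CCT4 (343.6 CPM) and HSPE1 (477.7 CPM). In SW948, 2-MiCit library 2 was high for CCT7 (1016 CPM) and HSPE1 (921.1 CPM), and it is also the library with a length slope of -0.225. In SKCO1, control library 2 was high for CCT5 (597.6 CPM) and 2-MiCit library 3 for HSPE1 (206.4 CPM). In SW1417, 2-MiCit library 4 was high for TCP1 (288.7 CPM) and CCT5 (519.0 CPM).

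The effect of 2-MiCit differed between HCT116, DLD1, LoVo and SW948 for all 10 chaperonin genes in edgeR's quasi-likelihood interaction test without a replicate block (CCT4 and HSPE1 were not called with one), with 4 libraries per group and Benjamini-Hochberg adjustment over all genes. The adjusted p was 0.0003096 for TCP1, 4.805e-06 for CCT2, 0.0001394 for CCT3, 0.009822 for CCT4 and 0.0006505 for CCT5. It was 0.0006514 for CCT6A, 0.004305 for CCT7, 0.003412 for CCT8, 0.0006472 for HSPD1 and 0.02744 for HSPE1. For each gene, log2 fold changes were negative in HCT116, DLD1 and LoVo and above 0 in SW948.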

How the results depend on the processing

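All 10 chaperonin genes were called lower in HCT116 under every alternative run, and in SKCO1 under every one except 1 fit over the table, which called 9. The counts in the other lines depended on the setting, and the cause was not tested. Counts are given as chaperonin genes called lower, or as all genes called lower and higher. DESeq2 called 4 chaperonin genes in DLD1, 9 in LoVo, 3 in HT29 and 3 in SW1417, and over all genes 164 lower and 347 higher in DLD1, 490 and 483 in LoVo, and 726 lower in HT29. Its interaction test called 4421 genes in the first table and 1467 in the second, with 1 chaperonin gene. The single fit called 7 chaperonin genes in DLD1, 4 in HT29 and 0 in SW1417. Over all genes it called 619 lower and 733 higher in DLD1, 120 higher in LoVo and 2 higher in SW948. HT29 had 1270 and 1221, SKCO1 had 1010 and 626, and SW1417 had 227 and 211. With library size alone the ring's mean was -0.4031 in HCT116 and -0.1316 in SKCO1, 2 chaperonin genes were called in LoVo, and 47 genes were lower in LoVo and 992 in SKCO1. With the authors' scaling 2 chaperonin genes were called in LoVo, 0 in HT29 and 0 in SW1417. Over all genes it gave 59 lower in LoVo, and HT29 had 181 and 294, SKCO1 had 767 and 430, SW1417 had 133 and 77, and the second table's interaction had 308. Without the low-count filter 2 were called in LoVo, and a stricter filter gave 34 genes higher in DLD1. With the length trend removed 5 genes were lower and 94 higher in DLD1, and LoVo had 9 chaperonin genes, with 329 and 345 over all genes.

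Correlations between the deviations of same-numbered libraries ran from -0.298 to 0.253, and the lowest of each line was 0.0738 or less. The numbers were therefore not taken as pairs. All of these correlations were positive in HCT116 (0.0738 to 0.253) and in HT29 (0.0211 to 0.0949), so pairing was not settled there. With the replicate block 0 genes were higher in DLD1. HT29 had 6 chaperonin genes (TCP1, CCT2, CCT5, CCT6A and CCT7 beside HSPD1), and 1034 and 1150 over all genes, and CCT7 was not called in LoVo (adjusted p = 0.0608). The block's interaction called 1637 genes in the first table and 1566 in the second with 2 chaperonin genes (CCT3 and HSPE1), and no longer called CCT4 (adjusted p = 0.0616) and HSPE1 (adjusted p = 0.0939) in the first. With the block and the length trend removed 7 genes were higher in DLD1. LoVo had 9 chaperonin genes (681 and 527 over all genes), HT29 had 6 (1097 and 1183), and the second table's interaction had 1, with 1683 over all genes.

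With 1 library left out, chaperonin counts ran from 0 to 9 in LoVo, 0 to 2 in HT29, 1 to 4 in SW1417 and 0 to 1 in the second table's interaction. Over all genes, counts ran from 0 to 20 lower and 1 to 163 higher in DLD1, and 4 to 540 and 32 to 528 in LoVo. SW948 had 0 to 2 and 0 to 1, HT29 had 153 to 520 and 299 to 594, and SW1417 had 303 to 670 and 187 to 460. Signs turned only for genes not called. In SW948 with the length trend removed, CCT2 was -0.0023, CCT3 -0.0382 and HSPE1 -0.0363, and with the block as well -0.0029, -0.0387 and -0.0397. With library size alone CCT3 was -0.008, and without 2-MiCit library 2 CCT3 was -0.0217, HSPD1 -0.0106 and HSPE1 -0.017. In HT29, HSPE1 was -0.1016, -0.005 and -0.0464 without 2-MiCit library 2, control library 3 and control library 4. With 1 library left out, the range was -0.0217 to 0.0537 for CCT3, -0.0106 to 0.0929 for HSPD1 and -0.017 to 0.2303 for HSPE1 of SW948, and -0.1016 to 0.1121 for HSPE1 of HT29. Depth was lower in the first table, at most 19.4 M counts per library.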
